A study of Mus musculus with 16 samples.

Results

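*Pkm* and 7 genes tied to it were followed across left ventricles of PKM2fl/fl and PKM2-/- mice. The 8 members were *Pkm* itself, its liver and red cell counterpart *Pklr*, and 6 genes for RNA-binding proteins with a described role in the splicing of *Pkm* (*Ptbp1*, *Ptbp2*, *Hnrnpa1*, *Hnrnpa2b1*, *Srsf3* and *Rbm4*). They were chosen by name, and each had its own row among the 55492 genes of the deposited table. Pyruvate kinase ends glycolysis by moving a phosphate group onto ADP, and its product can be reduced to lactate or enter the mitochondria. The primary *Pkm* transcript carries a pair of exons that exclude each other, exon 9 giving PKM1 and exon 10 giving PKM2. PKM1 is the form of adult striated muscle, whereas PKM2 is the form of embryonic, dividing and many immune cells. The polypyrimidine tract-binding protein (the product of *Ptbp1*) and hnRNP A1 and A2/B1 are known to hold back exon 9, SRSF3 is known to favour exon 10, and RBM4 is known to favour exon 9.

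RNA from 16 left ventricles of male C57BL/6 mice, 8 to 12 weeks old, was depleted of rRNA and sequenced, with 1 mouse per library. The control line, PKM2fl/fl, carries loxP sites around exon 10 of *Pkm*. In PKM2-/- mice exon 10 had been excised in the germline by Cre under a CMV promoter, after which the Cre allele was bred out, so that every cell type of the body lacked it. Hearts were taken without surgery (baseline, n = 2 per genotype), 3 days after a sham operation (n = 3 per genotype) or 3 days after myocardial infarction (3d MI, n = 3 per genotype) by permanent ligation of the left anterior descending artery. Values are normalized counts, that is, reads per gene divided by the size factor of the library. They count the 2 isoforms together, so that they cannot show the deletion of exon 10, nor PKM1 apart from PKM2.

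The exon pair and its surroundings are shown first, since this is the choice that the regulators act on. In GRCm39, *Pkm* runs from 59563364 to 59586663 on the forward strand of chromosome 9 (59656576 to 59679372 in mm10, the build of the deposited counts). Exon 9 is at chr9:59582312-59582478 and exon 10 at chr9:59582851-59583017. Each is 167 bases long. In the following pair, capitals mark the 64 positions at which the exons differ, and lower case marks the 103 that they share.
Pkm exon 9: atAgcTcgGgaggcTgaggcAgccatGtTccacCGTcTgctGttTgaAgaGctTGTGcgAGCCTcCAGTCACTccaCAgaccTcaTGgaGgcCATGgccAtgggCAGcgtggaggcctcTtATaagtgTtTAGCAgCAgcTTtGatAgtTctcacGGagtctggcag
Pkm exon 10: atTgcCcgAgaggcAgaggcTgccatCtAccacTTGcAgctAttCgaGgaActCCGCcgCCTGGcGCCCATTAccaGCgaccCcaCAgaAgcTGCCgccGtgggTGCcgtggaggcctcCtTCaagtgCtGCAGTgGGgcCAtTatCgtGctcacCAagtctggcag
The differing bases lay throughout both exons. The primers used by the study for isoform-specific qPCR fall on such stretches. The forward *Pkm1* primer matched exon 9 from 59582342 to 59582361, and the forward *Pkm2* primer matched exon 10 from 59582874 to 59582895.
Pkm1 forward primer: caccgtctgctgtttgaaga
Pkm2 forward primer: catctaccacttgcagctattc

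The intron next to each exon was searched for the core of the polypyrimidine tract-binding protein motif (TCTT) and for the core of the hnRNP A1 motif (TAGGG). Both were read only on the strand that has the sequence of the RNA, in windows of 100 bases from GRCm39, and no match of the one overlapped a match of the other. Capitals in the following windows mark the matches. The first is the 100 bases before exon 9 (chr9:59582212-59582311), the second is the 100 bases after exon 9 (chr9:59582479-59582578) and the third is the 100 bases before exon 10 (chr9:59582751-59582850).
Before exon 9: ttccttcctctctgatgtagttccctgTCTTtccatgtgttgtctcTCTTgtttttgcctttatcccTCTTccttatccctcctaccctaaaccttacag
After exon 9: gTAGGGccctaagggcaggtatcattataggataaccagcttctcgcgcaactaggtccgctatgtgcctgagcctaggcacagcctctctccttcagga
Before exon 10: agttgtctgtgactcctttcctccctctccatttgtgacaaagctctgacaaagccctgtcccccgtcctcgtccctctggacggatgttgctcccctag
TCTT occurred 3 times before exon 9 and 0 times before exon 10. Among 129010 internal exons of protein-coding genes with introns of at least 200 bases on both sides, 66.5% had at least 1 TCTT in that window and 10.4% had at least 3. TAGGG occurred 1 time after exon 9, directly behind the first base of the intron, and 8.38% of the same exons had at least 1 in the window after the exon. These matches describe the letters of the windows and not binding in these hearts.

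Library size ranged from 20623769 to 71855101 reads. Reads at 23 rRNA-related loci made up 18.6% to 56.5% of a library, the lowest in a PKM2fl/fl sham heart and the highest in a PKM2fl/fl MI heart. At baseline they made up 20.5% and 25.5% in PKM2fl/fl hearts against 49.4% and 45.8% in PKM2-/- hearts. After sham they made up 26.5%, 18.6% and 31.8% in PKM2fl/fl hearts against 34.3%, 34.2% and 53.2% in PKM2-/- hearts. This share was thus higher in PKM2-/- hearts without overlap in both settings, whereas after MI the genotypes overlapped. In sham hearts of both genotypes, the summed level of 6 cardiomyocyte markers (*Myh6*, *Tnnt2*, *Actn2*, *Ryr2*, *Pln* and *Myl2*) ranged from 650587 to 834685 normalized counts, and that of 3 liver markers reached at most 15.9.

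Of the 8 members, 7 were read in every library, and *Pklr* had few reads. *Pklr*, the pyruvate kinase of liver and red cells, had 10 reads in all 16 libraries together and none in 12 of them. Its highest value was 7.84 normalized counts, from 6 reads in 1 PKM2-/- sham heart. In the libraries without a read, the limit that a count of 0 allows (3 reads) ranged from 1.91 to 5.50 normalized counts, which covers counting error only. *Pkm* by contrast had 7015 to 19877 reads per library, and its mean exceeded that of 99.7% of all genes.

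Per kilobase of its canonical transcript, *Pkm* was the member with the highest level in all 6 groups. In PKM2fl/fl sham hearts it had 3539 ± 342 normalized counts per kilobase (SD, n = 3). *Hnrnpa2b1* followed with 1959 ± 80.5, *Hnrnpa1* with 1143 ± 114, *Srsf3* with 653 ± 23.8 and *Rbm4* with 538 ± 1.99 on this scale. *Ptbp2* and *Ptbp1* came last with 371 ± 20.2 and 268 ± 34.0, and the libraries of no neighbouring pair in this order overlapped. In PKM2fl/fl MI hearts the order was *Pkm* (4386 ± 514), *Hnrnpa1* (1517 ± 207), *Hnrnpa2b1* (1459 ± 163), *Ptbp1* (818 ± 112), *Srsf3* (715 ± 94.2), *Rbm4* (475 ± 37.7) and *Ptbp2* (438 ± 78.5). There the libraries of *Hnrnpa1* and *Hnrnpa2b1* overlapped, as did those of *Ptbp1* and *Srsf3* and those of *Rbm4* and *Ptbp2*. *Ptbp1* thus moved from the last place of the 7 to the fourth in PKM2fl/fl hearts. In PKM2-/- sham hearts its libraries (269 to 309) overlapped those of *Ptbp2* (283 to 434).

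**Figure D1:**
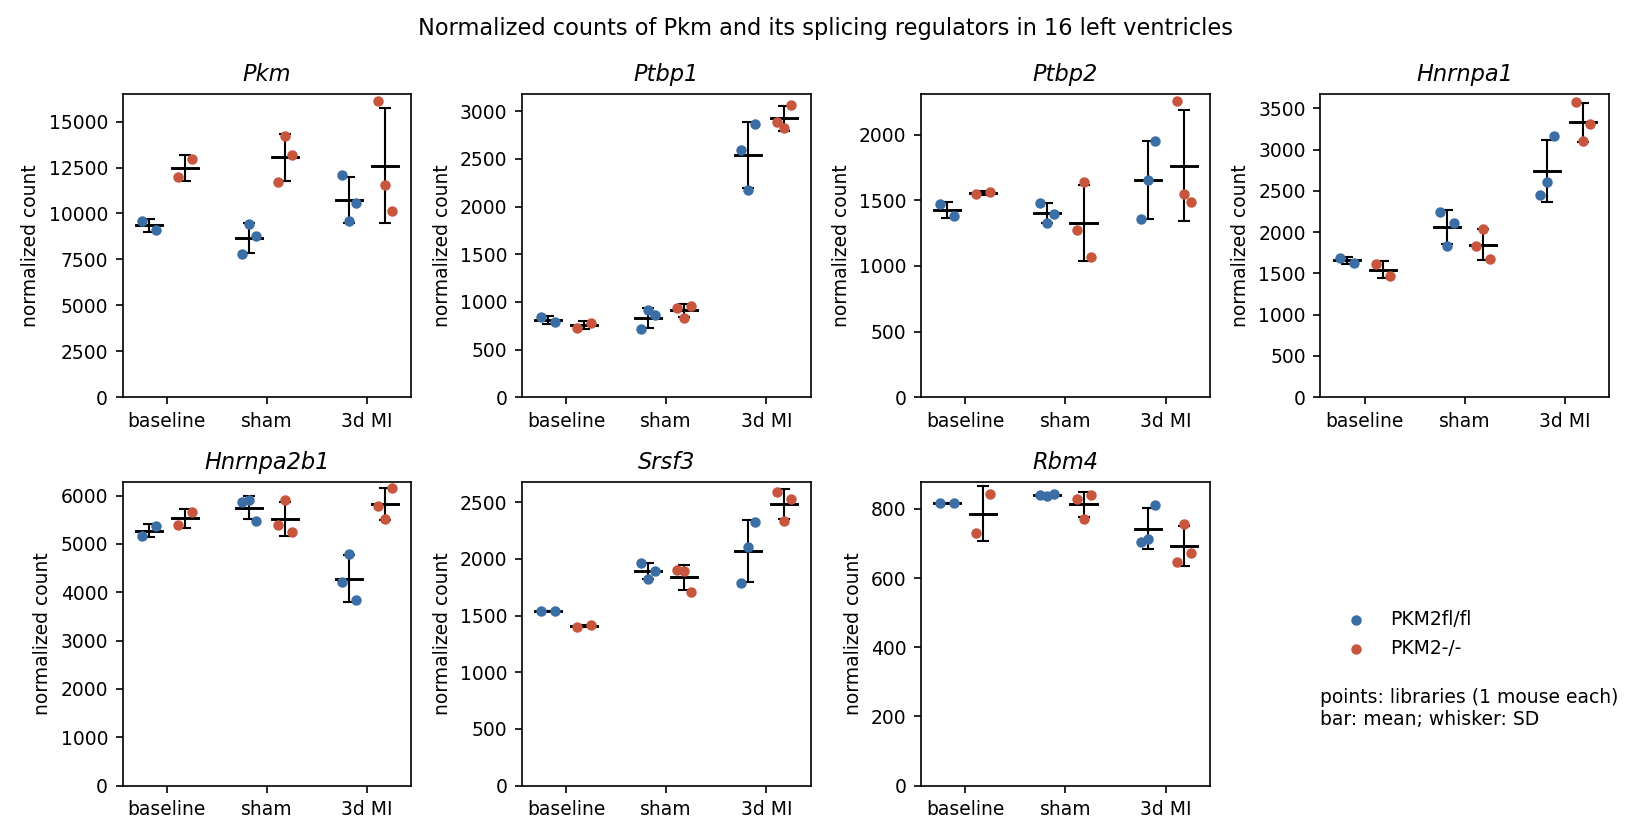
Normalized counts (vertical axis, from 0) of 7 members in baseline, sham and 3d MI left ventricles, with PKM2fl/fl in blue and PKM2-/- in red. Each point is 1 library (1 mouse), horizontal bars are means and whiskers are SD. All 6 *Ptbp1* points after MI lie between 2178 and 3069, above the other 10, and the *Pkm* points of PKM2-/- hearts lie above those of PKM2fl/fl hearts at baseline and after sham.

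The first question was whether the loss of exon 10 changed the summed level of *Pkm*. At baseline, *Pkm* had 9602 and 9108 normalized counts in the PKM2fl/fl hearts, against 11981 and 12984 in the PKM2-/- hearts. After sham, it had 7779, 9444 and 8764 in PKM2fl/fl hearts and 11710, 14242 and 13199 in PKM2-/- hearts. All PKM2-/- hearts lay above all PKM2fl/fl hearts in both settings, an arrangement that 1.45% of 20576 genes showed in that direction. After MI, *Pkm* had 12076, 9576 and 10560 in PKM2fl/fl hearts against 16113, 11549 and 10120 in PKM2-/- hearts, and the genotypes overlapped.

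The log2 fold change of *Pkm* between genotypes was 0.42 ± 0.09 at baseline, 0.59 ± 0.12 after sham and 0.21 ± 0.19 after MI (limma, ± SE). None passed Benjamini-Hochberg adjustment over all genes in limma (adjusted p = 0.407, 0.143 and 0.682). Averaged over the 3 treatments it was 0.40 ± 0.10, or 1.32-fold, with a 95% interval from 1.15 to 1.53 and an adjusted p of 0.130 in limma. An exact permutation test of this single gene, two-sided, with genotypes exchanged within each treatment (2400 arrangements), gave p = 0.00417, where the smallest possible value is 0.000833. With DESeq2 on the recovered reads, the adjusted p was 0.0467 at baseline, 0.000374 after sham and 0.00584 over the 3 treatments. The call thus depended on the test. It also passed in limma when the third PKM2fl/fl MI heart was left out (log2 fold change 0.40, adjusted p = 0.0372). When libraries were scaled to their total reads instead, the median of all genes over the 3 treatments moved to -0.19, and the difference of *Pkm* was 0.22 (exact permutation test, p = 0.231). On that scaling *Pkm* was on average lower in PKM2-/- hearts at baseline, and the genotypes overlapped both there and after sham. At baseline, *Pkm* had 12233 of 37368106 and 13729 of 49249902 reads in PKM2fl/fl hearts. In PKM2-/- hearts it had 10280 of 42174712 and 7085 of 24114441. The share of rRNA-related reads was also higher in PKM2-/- hearts at baseline and after sham. With the level of 1 rRNA locus as a covariate, the difference of *Pkm* was 0.49 (limma, adjusted p = 0.547). The difference between the genotypes in the response of *Pkm* to MI was -0.38 ± 0.22 in log2 (limma, adjusted p = 0.677).

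Reads on *Pkm* were set beside those on *Gm49759*, a single-exon gene model of uncertain coding status that lies inside *Pkm* on the same strand (chr9:59580097-59583983 in GRCm39) and spans exons 9 and 10 with the introns around them. Of the 2448 bases of the canonical *Pkm* transcript, 6.82% fall in this model, and how reads on both were counted is not given in the sources used here. *Gm49759* was among the 5 genes with the pattern most like *Pkm* over the 16 libraries, and it was compared in this way after its values had been seen. Its level differed by a log2 fold change of 0.08 ± 0.09 between genotypes at baseline, 0.17 ± 0.09 after sham and 0.08 ± 0.18 after MI (limma, adjusted p = 0.963, 0.512 and 0.880).

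The number of *Pkm* reads per *Gm49759* read does not depend on the scaling of a library. At baseline this ratio was 6.77 and 6.89 in PKM2fl/fl hearts against 8.60 and 8.66 in PKM2-/- hearts. After sham it was 5.92, 7.33 and 6.15 in PKM2fl/fl hearts against 8.19, 9.31 and 8.36 in PKM2-/- hearts. After MI it was 7.58, 7.16 and 8.07 in PKM2fl/fl hearts against 8.30, 8.14 and 8.44 in PKM2-/- hearts. The PKM2-/- hearts were the higher ones without overlap in all 3 settings, and since the ratio was chosen with its values known, it was not tested. Exon 9, which the canonical *Pkm* transcript does not hold, lies in both genes. So do the 167 bases of exon 10, which the PKM2-/- allele lacks. They make up a larger share of the *Pkm* transcript (6.82%) than of the 3887 bases of *Gm49759*, but the model also covers introns of the deleted stretch, whose ends were not used here. A lower count of *Gm49759* through the deletion itself, a higher count of *Pkm* and a shift of reads on exon 9 therefore cannot be told apart in this ratio.

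**Figure D2:**
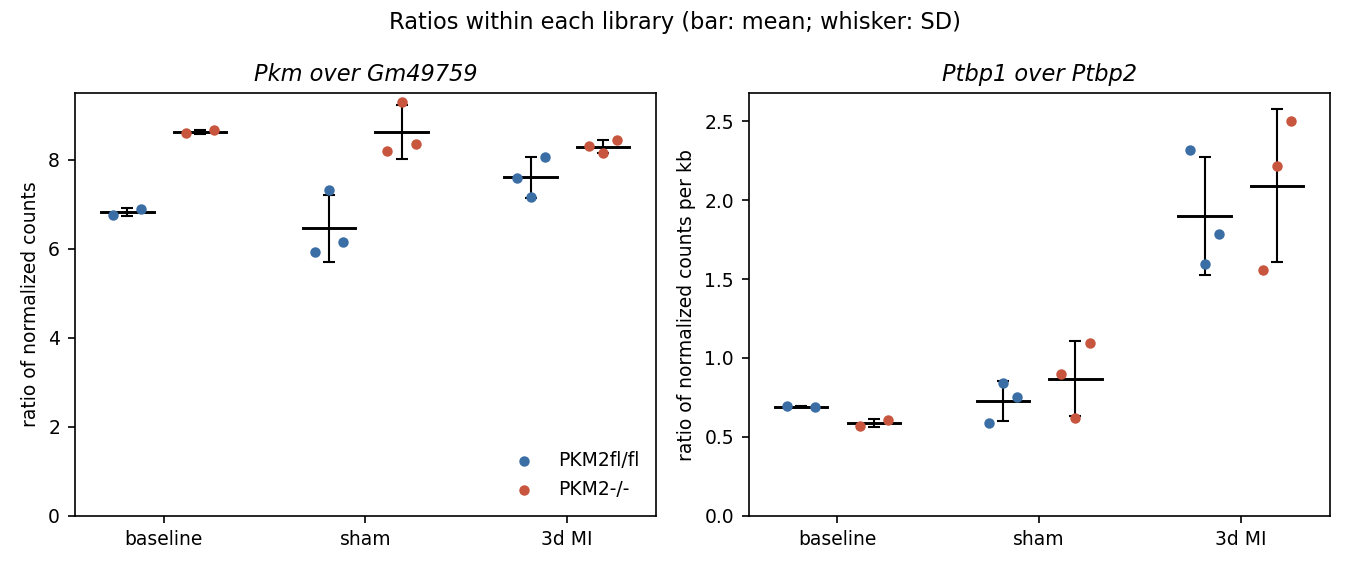
Left, *Pkm* reads per *Gm49759* read, and right, *Ptbp1* over *Ptbp2* per kilobase of canonical transcript, in each library (points, blue for PKM2fl/fl, red for PKM2-/-), with means (bars) and SD (whiskers). On the left, PKM2-/- points span 8.14 to 9.31 and PKM2fl/fl points span 5.92 to 8.07. On the right, MI hearts lie between 1.56 and 2.50 and all others between 0.569 and 1.09.

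In limma on the deposited normalization, none of the 6 splicing regulators passed adjustment between genotypes, at baseline, after sham, after MI or over the 3 treatments. The background was 0.238% of 20141 genes at baseline, 0.0447% of 20144 after sham, 0.0291% of 20612 after MI and 0.102% of 20576 over the 3 treatments. The libraries of the genotypes did not overlap for 6 of 7 members at baseline (34.8% of genes, with 2 against 2 hearts), for 1 of 7 after sham (16.6%) and for 2 of 7 after MI (19.0%). At baseline, *Pkm*, *Ptbp2* and *Hnrnpa2b1* were the higher and *Ptbp1*, *Hnrnpa1* and *Srsf3* the lower ones in PKM2-/- hearts. Unadjusted p from limma was under 0.05 for *Pkm* at baseline and after sham, for *Hnrnpa2b1* after MI, and for both of these over the 3 treatments. Over all genes, this held for 1003 of 20141 at baseline, 2178 of 20144 after sham, 2636 of 20612 after MI and 2350 of 20576 over the 3 treatments. The log2 fold changes of the 6 regulators ranged from -0.13 (*Srsf3*) to 0.13 (*Ptbp2*) at baseline and from -0.16 (*Hnrnpa1*) to 0.14 (*Ptbp1*) after sham. For *Ptbp1*, the 95% interval of the genotype difference over the 3 treatments ran from 0.951-fold to 1.17-fold, and for *Hnrnpa1* from 0.907-fold to 1.12-fold. After MI, *Hnrnpa2b1* and *Srsf3* were higher in all 3 PKM2-/- hearts than in all 3 PKM2fl/fl hearts. Their log2 fold changes were 0.45 ± 0.12 and 0.27 ± 0.13 (limma, adjusted p = 0.230 and 0.417), and the first passed when all 16 libraries shared 1 fit (limma, adjusted p = 0.0454). In the same hearts, the sum of 4 neutrophil markers was 1102 to 1952 in PKM2fl/fl and 3143 to 3999 in PKM2-/- hearts, with a median log2 fold change of 1.68, and the median of 6 cardiomyocyte markers was -0.52. No gene of these marker lists passed, and their part in the result was not tested. Scaling to total reads moved the median of all genes at baseline to -0.59, and 11852 of 20141 genes then passed as lower in PKM2-/- hearts. All 6 regulators were among them, from -0.46 (*Ptbp2*) to -0.72 (*Srsf3*).

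**Figure D3:**
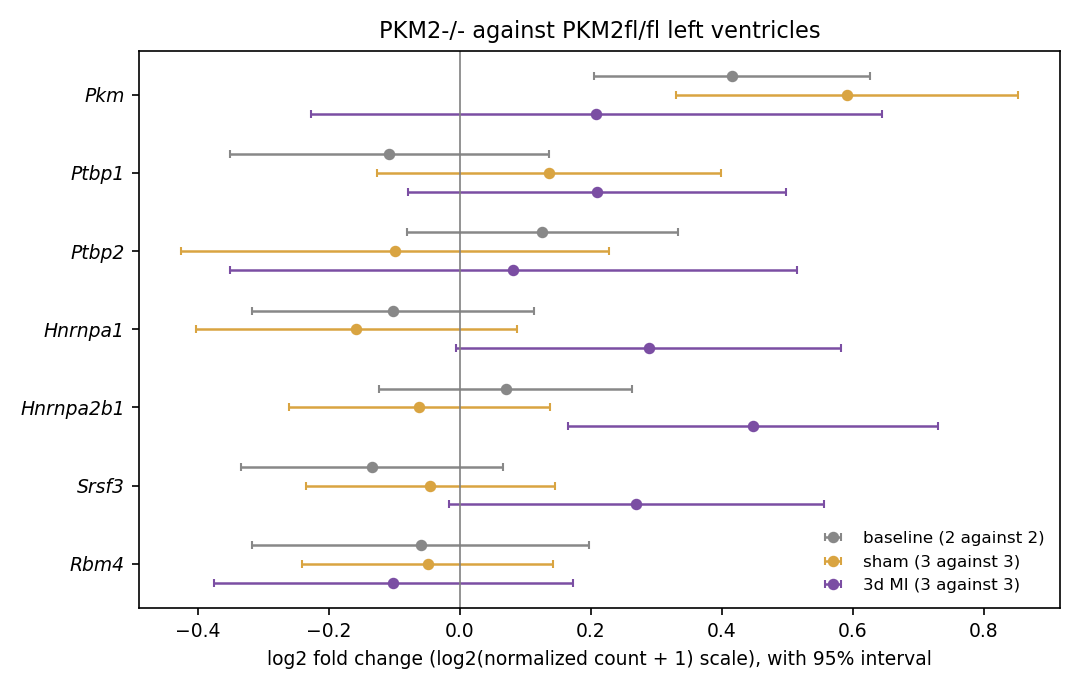
Log2 fold change between PKM2-/- and PKM2fl/fl hearts (horizontal axis, points) with unadjusted 95% intervals from limma (lines) for 7 members at baseline (grey), after sham (yellow) and after 3d MI (purple). *Pkm* lies at 0.42, 0.59 and 0.21, and the interval of *Hnrnpa2b1* lies above 0 after MI, where its point is at 0.45.

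The second question was how these genes responded to infarction. Both genotypes have their own sham controls, which the MI comparisons and the genotype comparisons share. Markers of cell types differed between infarcted and sham ventricles, and in bulk RNA fewer cells of a type and less RNA per cell cannot be told apart. The summed cardiomyocyte markers went from 735027 to 834685 in PKM2fl/fl sham hearts down to 126951 to 305103 after MI, and in PKM2-/- hearts from 650587 to 800918 down to 133409 to 189063. The summed level of 6 leukocyte markers (*Ptprc*, *Cd68*, *Adgre1*, *Lyz2*, *Itgam* and *Csf1r*) went from 5106 to 9949 up to 20513 to 36111 in PKM2fl/fl hearts and from 6747 to 8463 up to 26983 to 31935 in PKM2-/- hearts. Sums of 6 fibroblast markers and of 4 cycling cell markers were also higher, the latter at 456 to 924 after sham and 6350 to 9180 after MI over both genotypes. The part of this shift in the following results was not tested.

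*Ptbp1*, whose product holds back exon 9, had the largest log2 fold change of the 7 members tested. It had 714, 918 and 867 normalized counts in PKM2fl/fl sham hearts and 2591, 2178 and 2867 after MI. The PKM2-/- hearts had 939, 836 and 961 after sham and 2886, 2822 and 3069 after MI. The lowest MI heart of either genotype had more than 2 times the count of the highest sham heart. The rise was 3.05-fold in PKM2fl/fl hearts, with a 95% interval from 2.42 to 3.84 (limma, adjusted p = 0.000202). It was 3.21-fold in PKM2-/- hearts, with a 95% interval from 2.77 to 3.72 (limma, adjusted p = 9.98e-07). The difference between these responses was 0.07 ± 0.16 in log2 (limma, adjusted p = 0.934), and its 95% interval ran from -0.27 to 0.42. *Ptbp1* passed in both genotypes under every alternative scaling and test tried and with any single library left out.

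The canonical *Ptbp1* transcript shares 29.2% of its bases with 3 genes on the opposite strand, *Plppr3*, *Gm17134* and *E130317F20Rik*, and the library kit does not mark strand. *Plppr3* had the pattern most like that of *Ptbp1* among 13470 genes (Pearson r = 0.997 over 16 libraries), so that part of its count cannot be told apart from reads of *Ptbp1*. The next genes were *Actb* (0.995), a cytoskeletal actin, then *AI506816* (0.995), *Tpm4* (0.994) and *Gm16091* (0.994). These correlations describe 16 libraries that fall into MI and other hearts. Among the 12 promoters that RefSeq (GRCm38.p6) gave for the 8 members, the E-box CACGTG, the same on both strands, was found in that of *Ptbp1* only. It occurred in 7.15% of 32851 promoters of the same 300 bases. A single match among 12 promoters is near that share. *Myc*, among the regulators described later, codes for a factor that binds this motif. The match describes letters and not binding in these hearts. It is printed in capitals in the following 60 bases, chr10:79854360-79854419 in GRCm38.p6 on the forward strand.
Ptbp1 promoter: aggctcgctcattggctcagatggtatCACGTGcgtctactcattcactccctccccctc

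*Ptbp2*, the paralog best known from neurons, did not pass in either genotype. It had 1479, 1327 and 1395 normalized counts in PKM2fl/fl sham hearts and 1357, 1656 and 1950 after MI. In PKM2-/- hearts it had 1273, 1638 and 1069 after sham and 2253, 1547 and 1490 after MI, and sham and MI hearts overlapped in both genotypes. Its log2 fold changes were 0.23 ± 0.14 and 0.41 ± 0.19 (limma, adjusted p = 0.230 and 0.0928). The second passed when the second PKM2-/- sham heart was left out (0.57, limma, adjusted p = 0.0287). With scaling to reads outside rRNA and mitochondrial loci, both passed, at 0.42 and 0.65 (limma, adjusted p = 0.0496 and 0.0134). That scaling moved the medians of all genes to 0.20 and 0.26. The ratio of *Ptbp1* to *Ptbp2* per kilobase was 0.727 ± 0.129 in PKM2fl/fl sham hearts and 1.90 ± 0.374 after MI, and 0.869 ± 0.237 and 2.09 ± 0.485 in PKM2-/- hearts (SD, n = 3 each).

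*Hnrnpa1*, the gene of hnRNP A1, was higher after MI in both genotypes. It had 2239, 1836 and 2113 normalized counts in PKM2fl/fl sham hearts and 2450, 2604 and 3160 after MI. The PKM2-/- values were 1826, 2043 and 1676 after sham and 3573, 3100 and 3315 after MI. All MI hearts lay above all sham hearts of their genotype, as they did for *Ptbp1*, and 24.2% of 20576 genes lay apart in this direction in both genotypes. The rise was 1.32-fold in PKM2fl/fl hearts, with a 95% interval from 1.07 to 1.64 (limma, adjusted p = 0.0398), and 1.80-fold in PKM2-/- hearts, from 1.53 to 2.12 (limma, adjusted p = 8.94e-05). The first of these calls was lost when any 1 of the 6 libraries other than the first MI heart was left out, the adjusted p from limma then ranging from 0.0551 to 0.145. In the annotation, 11 other genes share stretches of at least 200 bases and 95% identity with *Hnrnpa1*. The 10 of them listed in the table had a summed mean of 33.6% of its own. *Lztfl1* alone gave 554 of these summed 763 normalized counts. How reads that match several genes were counted is not given in the sources used here.

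*Hnrnpa2b1*, the gene of hnRNP A2 and B1, fell after MI in PKM2fl/fl hearts. It had 5864, 5904 and 5477 normalized counts after sham and 4212, 4793 and 3842 after MI, an arrangement without overlap that 28.8% of genes showed in this direction. In PKM2-/- hearts it had 5386, 5907 and 5245 after sham and 5793, 5510 and 6163 after MI, where the groups overlapped. The log2 fold change was -0.43 ± 0.12 in PKM2fl/fl hearts (limma, adjusted p = 0.0227) and 0.08 ± 0.10 in PKM2-/- hearts (limma, adjusted p = 0.531). The difference between the genotypes in this response was 0.51 ± 0.14 in log2. Its unadjusted p of 0.00194 from limma was the 101st smallest of 20576, but it did not pass adjustment (adjusted p = 0.389 in limma and 0.0555 in DESeq2). The fall in PKM2fl/fl hearts did not pass when any of the 3 sham hearts or the first MI heart was left out (limma, adjusted p from 0.0507 to 0.0813). It also did not pass when libraries were scaled to reads outside rRNA and mitochondrial loci. That scaling moved the median of all genes to 0.20 and gave a log2 fold change of -0.24 (limma, adjusted p = 0.168). With the same scaling, the median of all genes moved to 0.26 in PKM2-/- hearts, and *Hnrnpa2b1* passed there at 0.32 (limma, adjusted p = 0.0194). The share of rRNA-related reads was 56.2%, 23.9% and 56.5% in the PKM2fl/fl MI hearts, in the order of the counts given for them, and its part was not tested. Of the canonical *Hnrnpa2b1* transcript, 33.0% is shared with *Cbx3* on the opposite strand.

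*Srsf3*, whose product favours exon 10, had 1962, 1824 and 1894 normalized counts in PKM2fl/fl sham hearts and 1784, 2106 and 2327 after MI, with overlap. For PKM2-/- hearts the counts were 1902, 1896 and 1712 after sham and 2590, 2337 and 2529 after MI, an arrangement without overlap that 32.2% of genes showed in this direction. The log2 fold change was 0.12 ± 0.12 in PKM2fl/fl hearts (limma, adjusted p = 0.444), and in PKM2-/- hearts it rose by 0.44 ± 0.09 (limma, adjusted p = 0.00298). The difference between these responses was 0.31 ± 0.14 in log2 and did not pass (limma, adjusted p = 0.573), with a 95% interval from 0.03 to 0.60.

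*Rbm4*, whose product favours exon 9, had 842, 838 and 844 normalized counts in PKM2fl/fl sham hearts and 703, 714 and 810 after MI, against 830, 772 and 839 and then 647, 757 and 672 in PKM2-/- hearts. Every MI heart was below every sham heart of its genotype, and 23.4% of 20576 genes lay apart in this direction in both genotypes. The log2 fold changes were -0.18 ± 0.10 and -0.24 ± 0.10 and did not pass (limma, adjusted p = 0.186 and 0.0816). Over both genotypes the exact permutation test of this gene gave p = 0.005, the smallest that its 400 arrangements allow. With scaling to reads outside rRNA and mitochondrial loci, the log2 fold changes of *Rbm4* were 0.01 and 0.0043, while the medians of all genes were 0.20 and 0.26, so that *Rbm4* stayed below the median gene. Nearly all of the canonical *Rbm4* transcript (99.8%) is shared with *Gm21992*, a read-through model on the same strand with a mean of 3135 normalized counts, so that the level of *Rbm4* is uncertain. *Rbm4b*, which shares stretches of at most 416 bases with *Rbm4* at an identity of at least 95%, had a mean of 56.9% of that of *Rbm4*.

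*Pkm* itself, after MI, was at 9576 to 12076 normalized counts in PKM2fl/fl hearts, above the 7779 to 9444 of sham hearts, as were 30.3% of genes. In PKM2-/- hearts the sham values of 11710 to 14242 lay within the 10120 to 16113 of MI hearts. Its log2 fold changes were 0.31 ± 0.15 and -0.07 ± 0.17 (limma, adjusted p = 0.126 and 0.741). With scaling to reads outside rRNA and mitochondrial loci, the first became 0.50 (limma, adjusted p = 0.0222), where the median of all genes was 0.20. The genes with the pattern most like *Pkm* over the 16 libraries were *Snap91* (Pearson r = 0.918) and *Sidt2* (0.847), both also on chromosome 9, followed by *Rock2* (0.821), *Maea* (0.810) and *Gm49759* (0.779). *Snap91*, a clathrin coat assembly gene, was 7.22-fold higher in PKM2-/- hearts at baseline (limma, adjusted p = 0.0187) and 6.07-fold higher after sham (limma, adjusted p = 0.00957). After MI it was at 1.47-fold and did not pass (limma, adjusted p = 0.687).

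Of the 7 members tested for MI against sham, 2 rose and 1 fell in PKM2fl/fl hearts, against a background of 45.2% of 20568 genes past the same threshold. In PKM2-/- hearts 3 rose and 0 fell, against 54.3% of 20572 genes. In direction, 23.2% of all genes were higher and 22.0% lower in PKM2fl/fl hearts, and 27.9% were higher and 26.4% lower in PKM2-/- hearts. The members' counts, 3 of 7 in either genotype, were not above these shares. With scaling to reads outside rRNA and mitochondrial loci, 6595 genes were higher and 3168 lower in PKM2fl/fl hearts, and 7783 and 3963 in PKM2-/- hearts. With scaling to total reads, 2155 were higher and 2914 lower, and 7029 and 1798. Of the members, *Ptbp1* alone also passed with at least a 2-fold change, as did 23.3% and 28.5% of all genes. The median log2 fold change of the 7 members was 0.23 in PKM2fl/fl and 0.41 in PKM2-/- hearts, beside 0.01 and 0.03 for all genes. Between the genotypes' responses to MI, 0 of 20576 genes passed in limma (1703 at an unadjusted p under 0.05), 53 passed in DESeq2 and 0 in edgeR, and no member passed in any of them.

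**Figure D4:**
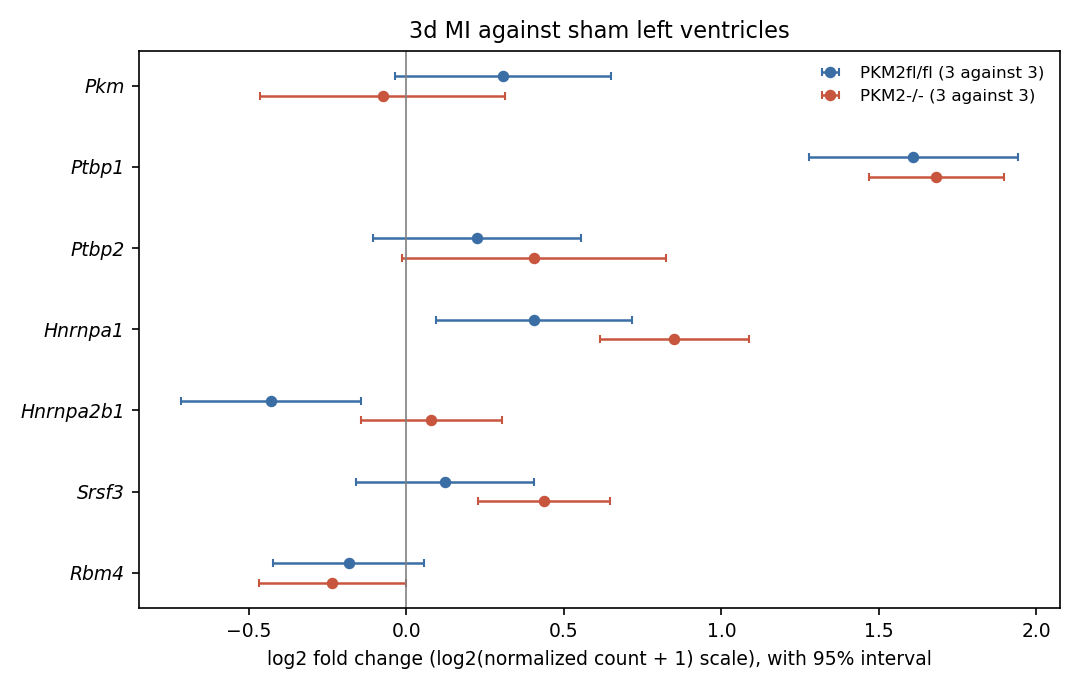
Log2 fold change between 3d MI and sham hearts (horizontal axis, points) with unadjusted 95% intervals from limma (lines) for 7 members in PKM2fl/fl (blue) and PKM2-/- (red) hearts. *Ptbp1* lies at 1.61 and 1.68, and *Hnrnpa2b1* lies at -0.43 in PKM2fl/fl and 0.08 in PKM2-/- hearts.

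Between baseline and sham hearts, a pair of members did not overlap in either genotype. *Hnrnpa1* had 1687 and 1625 normalized counts in PKM2fl/fl and 1615 and 1473 in PKM2-/- hearts at baseline, below all sham values of the same genotype. *Srsf3* had 1542 and 1543 at baseline in PKM2fl/fl and 1399 and 1413 in PKM2-/- hearts, again below all sham values. Of 20576 genes, 6.30% were higher after sham without overlap in both genotypes. Averaged over the genotypes, the log2 difference was 0.28 for *Hnrnpa1* and 0.34 for *Srsf3* (exact permutation test, two-sided, p = 0.02 and 0.01, the latter the smallest of its 100 arrangements). These p-values are of single genes and were not adjusted. For *Ptbp1* the log2 difference was 0.15 (exact permutation test, p = 0.14), against 1.65 between MI and sham.

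Genes of related function were followed in 6 lists. Beside their counts, 23.2% of all genes were higher and 22.0% lower after MI in PKM2fl/fl hearts, and 27.9% and 26.4% in PKM2-/- hearts. These shares moved with the scaling, as given earlier. Of 6 genes of the PTB family and its partners, 2 rose after MI in PKM2fl/fl hearts, and 4 rose and 1 fell in PKM2-/- hearts. *Ptbp3*, the third paralog, went from 1921 ± 135 after sham to 4353 ± 1170 after MI in PKM2fl/fl and from 2102 ± 70.8 to 5341 ± 124 in PKM2-/- hearts (SD, n = 3 each). These are log2 fold changes of 1.15 and 1.35 (limma, adjusted p = 0.00186 and 1.72e-06). *Raver1*, a partner of PTB, rose by 0.38 and 0.36 on the log2 scale (limma, adjusted p = 0.0278 and 0.0279).

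Of the other hnRNP genes, 3 of 16 rose and 1 fell in PKM2fl/fl hearts, and 11 of 17 rose and 1 fell in PKM2-/- hearts. *Hnrnph3* fell in both, by 1.00 and 0.94 on the log2 scale, and *Hnrnpab*, *Hnrnpf* and *Hnrnpk* rose, the first by 0.57 and 0.90. Of the other SR protein genes, 1 of 10 rose and 1 fell in PKM2fl/fl hearts, and 6 of 10 rose and 1 fell in PKM2-/- hearts. *Srsf9* rose by 0.55 and 0.77, whereas *Srsf5* fell by 0.36 in PKM2fl/fl hearts and had a log2 fold change of 0.02 in PKM2-/- hearts, where it did not pass. The difference between the genotypes' responses lay above 0 for 15 of 17 hnRNP genes and 9 of 10 SR protein genes, with medians of 0.23 and 0.21, beside -0.01 for all genes. No gene of these lists passed the test of that difference. On the same measure, cardiomyocyte markers lay above 0 for 0 of 6 genes (median -0.47), neutrophil markers for 4 of 4 (0.83), erythroid markers for 5 of 5 (0.52) and cycling cell markers for 4 of 4 (0.30), and their part in the shift was not tested. *Srsf1*, *Celf1* and *Hnrnpu*, which most cells use and which were singled out after their values had been seen, were listed near 0 in most libraries (*Srsf1* at 0 to 9 reads). *Hnrnpu* had 372 reads in 1 PKM2-/- sham heart and is therefore counted among the 17 hnRNP genes, where it did not pass and its difference between responses was -0.82 ± 1.95.

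Of 8 muscle splicing factors tested, 1 rose and 3 fell in PKM2fl/fl hearts, and 1 rose and 4 fell in PKM2-/- hearts. *Rbm20*, the regulator of titin splicing, fell by 1.60 and 2.16 on the log2 scale, *Rbm24* fell by 1.53 and 1.84, and *Rbfox1* fell by 1.01 and 1.06 (limma, adjusted p at most 0.00364 in each). *Mbnl3* rose by 2.26 and 2.80, from a low level of 33.0 ± 8.03 to 161 ± 37.1 normalized counts in PKM2fl/fl hearts (SD, n = 3 each). The summed cardiomyocyte markers were lower in the same MI hearts, as given earlier. *Rbfox1* was also the gene of these lists that passed between genotypes over the 3 treatments, lower in PKM2-/- hearts by a log2 fold change of -0.55 ± 0.10 (limma, adjusted p = 0.0474). It had 4574 ± 585 normalized counts in PKM2fl/fl and 2606 ± 357 in PKM2-/- sham hearts (SD, n = 3 each), while at baseline the libraries overlapped. Its log2 fold change between genotypes was 0.02 at baseline, -0.81 after sham and -0.87 after MI, none of which passed (limma, adjusted p = 0.997, 0.105 and 0.106). The call over the 3 treatments was lost without a filter and with the rRNA covariate. It was also lost without the first PKM2fl/fl baseline heart, the second PKM2fl/fl MI heart or the second PKM2-/- baseline, sham or MI heart. In each of these limma fits 0 genes passed. Without the second PKM2fl/fl baseline heart or the first PKM2-/- sham heart, 0 genes passed as lower, so the call was lost there too. Whether it held without each of the other libraries is not given here.

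Of 7 other named regulators of *Pkm*, 3 rose and 1 fell in PKM2fl/fl hearts, and 4 rose and 1 fell in PKM2-/- hearts. *Myc*, a transcription factor known to act on *Ptbp1*, *Hnrnpa1* and *Hnrnpa2b1*, went from 67.0 ± 6.86 to 467 ± 167 normalized counts in PKM2fl/fl hearts and from 129 ± 22.4 to 565 ± 153 in PKM2-/- hearts (SD, n = 3 each). *Hif1a*, the hypoxia-inducible factor, rose by 1.02 and 1.36 on the log2 scale, and *Khdrbs1*, the gene of the RNA-binding protein Sam68, rose by 0.42 and 0.60. *Max*, the dimer partner of MYC, fell by 0.48 and 0.55. Each of these passed in both genotypes (limma, adjusted p at most 0.00947).

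Of 10 genes for enzymes and carriers next to pyruvate kinase, 2 rose and 6 fell in either genotype. *Mpc1* and *Mpc2*, which form the mitochondrial pyruvate carrier, fell by 1.36 and 1.68 on the log2 scale in PKM2fl/fl hearts and by 1.53 and 1.50 in PKM2-/- hearts. *Pdha1*, a subunit of pyruvate dehydrogenase, fell by 1.58 and 1.68. *Eno1*, the enolase of most tissues, rose by 1.33 and 1.56. *Pkm*, with log2 fold changes of 0.31 and -0.07, did not pass in either direction. The median of this list was -1.08 in PKM2fl/fl and -1.21 in PKM2-/- hearts, beside 0.01 and 0.03 for all genes.

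**Figure D5:**
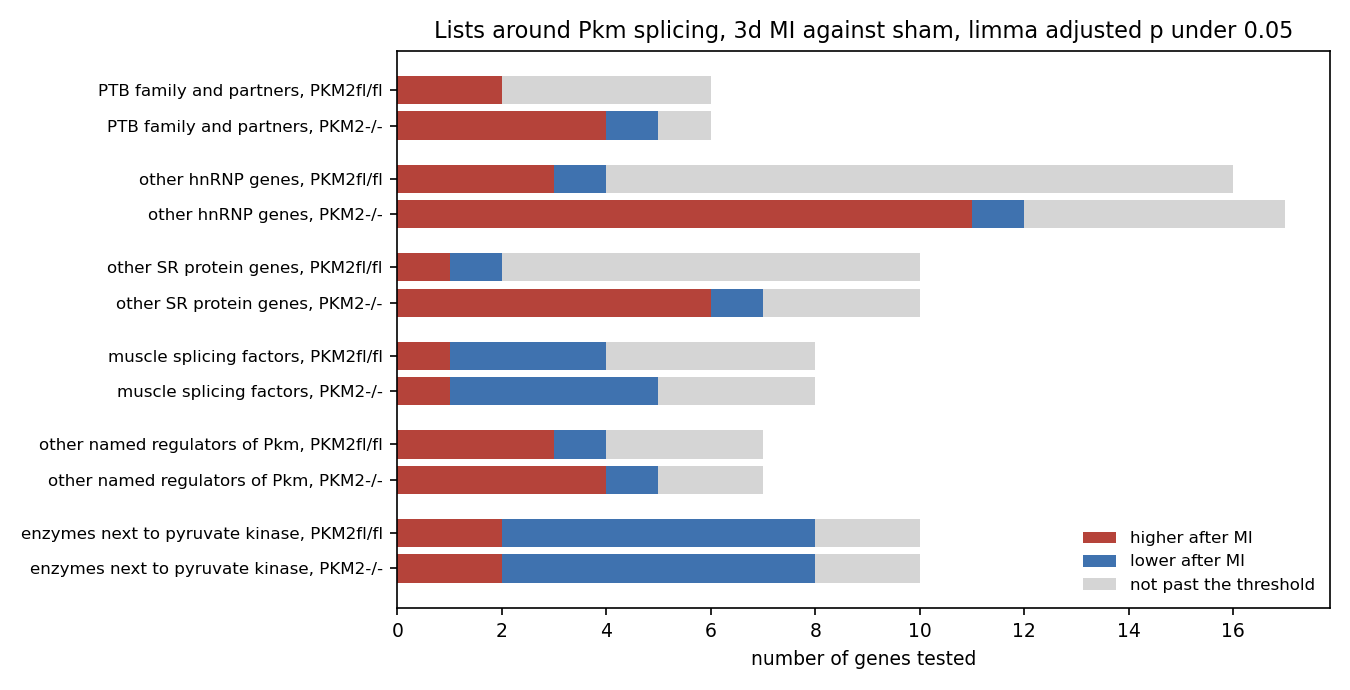
Number of genes (horizontal axis) of 6 lists that were higher (red), lower (blue) or not past the threshold (grey) in 3d MI against sham hearts, for each genotype (limma, adjusted p under 0.05). Red bars reach 11 of 17 for the other hnRNP genes in PKM2-/- hearts, and the enzymes next to pyruvate kinase have 6 of 10 in blue in both genotypes.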

How the data were processed

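Per the labels and the methods of the study, the authors used HISAT2 for alignment against mm10, featureCounts for gene-level counting and DESeq2 for normalization of the paired-end reads. For splice variants of *Pkm*, the study also aligned the reads to GRCm39 with Kallisto. It reported more *Pkm1* transcript and PKM1 protein in PKM2-/- hearts, and those isoform values were not used here. Strand, overlap and multi-mapping settings are not given in the sources used here. The deposited signal values are read counts divided by the size factor of each library, and multiplying back gave whole reads (within 0.01) for 100% of values, 20623769 to 71855101 per library. Counting error sets the precision of low values. The log2 fold changes with their errors, the Wald scores and the p-values that the authors deposited for the baseline groups were not used.

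Genes whose mean reached 10 normalized counts entered limma 3.58.1 (R 4.3.3) on log2(normalized count + 1), which understates changes of low genes, by 2-group fits or, for contrasts over several groups, 1 fit of 16 libraries. P-values were Benjamini-Hochberg adjusted over all genes tested, with a threshold of 0.05. Intervals are unadjusted. Single members were tested with exact two-sided permutation tests, for which 2 against 2 and 3 against 3 hearts allow no p under 0.333 and 0.1. The fits were run on simulated data with the same spread for every gene, unlike these libraries. That run cannot show how well the fits perform here. Alternatives were TMM (edgeR 4.0.16), total read scaling, scaling to reads outside 23 rRNA-related loci and 37 mitochondrial genes, edgeR and DESeq2 1.42.0 on the recovered reads, another pseudocount (0.1), no filter, a replicate block, a single fit, an rRNA locus as covariate and leaving out each library. Sequences came from GENCODE M39 (GRCm39) and RefSeq (GRCm38.p6), and genes with near-identical stretches from BLAST 2.17.0.

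Members and lists were chosen with earlier results of these data known. All members were named, with at most 4 genes per related list by smallest p after MI in PKM2fl/fl hearts, any that passed between genotypes, and the 5 genes most correlated with *Pkm* and with *Ptbp1* among those with a mean of at least 100.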

Additional observations from a re-analysis of the deposited data

How the results depend on the processing

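The 49 tests of members gave 854 values under the alternatives. Of these, 786 kept direction and side of the threshold, 14 were no longer past it, 16 were newly past it, 2 reversed and 36 changed sign without passing. Scaling to total reads, which moved the median of all genes by -0.59 at baseline and 0.67 for the difference between MI responses, reversed *Ptbp2* (-0.46) and *Hnrnpa2b1* (-0.52) at baseline. It also took *Hnrnpa1* (0.23) and *Hnrnpa2b1* (-0.61) after MI in PKM2fl/fl hearts out of the calls and gave 0.22 for *Pkm* in the exact test. Under this scaling *Pkm* changed sign at baseline, without passing. *Hnrnpa1* (0.40) was not past the threshold without a filter or with the replicate block, and *Hnrnpa2b1* (-0.24) was not with scaling outside rRNA and mitochondrial loci. *Pkm* passed over the 3 treatments with DESeq2 (0.41). Leaving out single libraries gave 0.30 to 0.48 for *Hnrnpa1*, -0.51 to -0.35 for *Hnrnpa2b1* and 0.34 to 0.45 for *Pkm*. The cause of these changes was not tested.

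Counts of genes past the threshold moved more. Between genotypes, 48 at baseline became 11960 (108 higher, 11852 lower) with total reads, 99 with DESeq2, 80 with the replicate block, 2 in a single fit and 46 to 118 with 1 library left out. After sham, 9 became 245 (60 higher, 185 lower), 351, 53, 2 and 0 to 37 under the same settings. After MI, 6 became 148 (125 higher, 23 lower), 474, 20, 199 and 0 to 1580, and 21 without a filter. Over the 3 treatments, 21 became 139, 329 and 4 with total reads, DESeq2 and the block, 13 with edgeR, 0 without a filter or with the rRNA covariate, and 0 to 715 with 1 library left out. The difference between MI responses went from 0 to 54 with total reads, 53 with DESeq2 and 0 to 486 with 1 left out. The highest of the last 2 ranges and of that after MI came without the third PKM2fl/fl MI heart. MI against sham in PKM2fl/fl hearts went from 9294 to 5069 with total reads. Each heart is another mouse. Same-numbered libraries correlated by -0.091 to 0.126 in their deviations, and differently numbered ones by -0.200 to 0.160. With deviations taken from means of 2 or 3 hearts, these values cannot show whether a number marks a shared batch. No member was called between genotypes with the block.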
